A study of Mus musculus with 23 samples.

Results

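The genes described here are 10 markers of alveolar type 1 (AT1) cells: Ager, Hopx, Pdpn, Aqp5, Rtkn2, Clic5, Emp2, Cav1, Igfbp2 and Akap5. They were taken by symbol from the tables of normalized counts of both comparisons of the study, where they are 10 of 35455 and 10 of 35454 genes listed. All 10 passed the minimum mean normalized count of 10 that was set for testing, as 10 of 17558 genes in the first table and 10 of 17424 in the second. From 2 to 12 weeks post-initiation (p.i.), 9 of the 10 were lower in BRAFV600E-driven and in BRAFV600E/PI3KαH1047R-driven tumor cells, and Aqp5 was higher in both. Of the 10, Ager, Rtkn2, Igfbp2 and Akap5 passed the test across all genes, each in the direction of a fall, where 0.786% of all genes passed and 0.393% passed as lower. These calls were lost, with 0 of 10 left, on leaving out any of 6 single libraries and with no filter on low values. They were also lost in BRAFV600E/PI3KαH1047R libraries alone and with the replicate number as a block, although these numbers do not pair libraries. In the same comparison the median log2 fold change was 2.32 for alveolar type 2, -1.93 for fibroblast and -0.98 for endothelial markers.

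RNA was sequenced from 23 libraries of lung tumor cells of age-matched mice on a mixed genetic background. Every mouse carried 1 BrafCAT allele (genotype CAT/+ in the labels), which expresses BRAFV600E and membrane tdTomato after the action of CRE, and CRE was given by an adenovirus in which the surfactant protein C promoter restricts it to alveolar type 2 (AT2) cells. Of these libraries, 6 came from BRAFV600E tumors (1, 3 and 2 at 2, 6 and 12 weeks p.i.) and 8 from BRAFV600E/PI3KαH1047R tumors with 1 Pik3ca allele that encodes the mutant enzyme (2, 4 and 2 at the same weeks). At 12 weeks p.i., 5 more were BRAFV600E/PGC1αHet and 4 BRAFV600E/PGC1αNull, with 1 or 2 mutant copies of Ppargc1a, a floxed gene that the same CRE inactivates. The cells were sorted by flow cytometry as tdTomato+ cells, so every group, controls included, expresses BRAFV600E and no normal lung is among the samples. Mice harvested at 12 weeks received a lower virus titer than those at 2 and 6 weeks, so week and titer cannot be told apart at 12 weeks.

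AT1 cells are the flat epithelial cells that cover most of the alveolar surface and across which gas is exchanged. AT2 cells, which make surfactant, are also the progenitors that give rise to AT1 cells after injury, and during that change they lose surfactant transcripts and gain AT1 transcripts. YAP and TAZ with their TEAD partners, together with NKX2-1, are known to maintain the AT1 program. In sorted bulk samples such as these, fewer cells of a type and less RNA of it per cell cannot be told apart.

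Sequences at the start sites are shown for the 3 markers that passed the test and have a RefSeq entry in the promoter table used here, and for Aqp5, the marker that was higher at 12 weeks. Windows run from 250 bases before to 50 bases after a RefSeq start site in build GRCm38.p6, 12 windows for 9 of the 10 markers, and where a gene had more than 1 the window farthest upstream is printed. Capitals mark the letters GGGCGG (the GC box) and CCAAT (the CCAAT box), read on both strands, and each window is on the plus strand.
Ager, chr17:34597600-34597899: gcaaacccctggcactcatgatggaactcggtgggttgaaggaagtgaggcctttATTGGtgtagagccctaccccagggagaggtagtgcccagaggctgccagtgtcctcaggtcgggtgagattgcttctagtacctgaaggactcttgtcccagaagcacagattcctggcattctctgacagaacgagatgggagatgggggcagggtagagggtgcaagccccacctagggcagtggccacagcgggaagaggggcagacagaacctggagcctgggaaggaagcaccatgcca
Akap5, chr12:76324641-76324940: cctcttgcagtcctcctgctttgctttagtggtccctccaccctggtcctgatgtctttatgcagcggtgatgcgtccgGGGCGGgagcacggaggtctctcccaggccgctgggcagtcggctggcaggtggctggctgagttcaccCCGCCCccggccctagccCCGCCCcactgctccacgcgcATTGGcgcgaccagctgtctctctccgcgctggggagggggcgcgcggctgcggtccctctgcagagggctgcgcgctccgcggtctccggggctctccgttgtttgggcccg
Igfbp2, chr1:72824230-72824529: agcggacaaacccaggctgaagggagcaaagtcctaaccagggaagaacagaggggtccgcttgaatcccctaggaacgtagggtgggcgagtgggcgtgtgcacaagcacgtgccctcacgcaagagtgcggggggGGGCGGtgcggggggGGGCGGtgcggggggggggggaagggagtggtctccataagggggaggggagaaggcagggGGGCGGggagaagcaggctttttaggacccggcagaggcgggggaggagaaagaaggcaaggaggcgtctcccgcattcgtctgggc
Aqp5, chr15:99590778-99591077: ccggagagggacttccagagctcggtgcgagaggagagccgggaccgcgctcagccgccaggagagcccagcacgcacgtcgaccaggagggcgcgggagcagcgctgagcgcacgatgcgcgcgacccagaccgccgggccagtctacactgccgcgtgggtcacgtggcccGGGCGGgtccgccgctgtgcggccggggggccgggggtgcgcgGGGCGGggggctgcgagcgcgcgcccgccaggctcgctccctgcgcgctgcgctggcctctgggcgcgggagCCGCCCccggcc

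The Ager window, with 58.3% G and C, held 1 CCAAT box and 0 GC boxes. The Akap5, Igfbp2 and Aqp5 windows were richer in G and C, at 70.7%, 67.0% and 79.7% against a median of 52.7% over all 32851 windows, and held 3 GC boxes each. Over the 12 windows of the markers, 7 held GGGCGG and 4 held CCAAT, where 35.7% and 37.4% of all windows do, and 1 window, of Cav1, held TATAAA (13.6% of all). The core letters of TEAD sites, GGAATG, were in 0 of the 12 windows against 14.7% of all windows, and those used for NKX2-1, CACTTG, were in 1, a Hopx window, against 13.6%. These letter matches describe the windows and are not mapped binding sites.

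Totals of normalized counts ran from 16433820 to 20287296 in the 14 libraries of the first table and from 7115753 to 9159567 in the 9 of the second, which was normalized apart, so levels were compared within a table only. Sftpc, the surfactant gene whose promoter drives CRE, had at least 21173 normalized counts in each of the 14. It was lowest in both BRAFV600E/PI3KαH1047R libraries at 2 weeks, at 38864 and 21173. No library of other sorted cells was there to compare with, so these levels do not show the AT2 identity of the sort. Endothelial markers were present as well, and Pecam1 ran from 1264 to 16965. Both BRAFV600E/PI3KαH1047R libraries at 2 weeks and replicate 1 at 6 weeks stood apart from the rest, with the highest endothelial and the lowest AT2 scores, a score being the mean of log2 (normalized count + 1) over a list. The labelled sex went against the Y-linked gene Kdm5d in both BRAFV600E/PI3KαH1047R libraries at 12 weeks, which share a group. In the second table Kdm5d did not fall into ranges that match the labels, with 4 of 9 libraries against theirs. Nothing in the labels says how the libraries of a group relate beyond their numbers, so p-values measure the spread between these libraries.

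The first question was how the markers changed with time in tumors of each genotype. Genes were compared with limma on log2 (normalized count + 1), with genotype and week as terms for comparisons of weeks, and a gene was called at a Benjamini-Hochberg adjusted p under 0.05 over all 17558 genes. From 2 to 12 weeks, 4 of the 10 markers were called, all lower at 12 weeks, where 0.786% of all genes were called and 0.393% were called lower. The median log2 fold change was -1.82 over the 10 markers and 0.02 over all genes tested. By unadjusted p under 0.05, 10 of the 10 markers passed, against 17.1% of all genes. For 8 markers every library at 12 weeks was below every library at 2 weeks, against 6.71% of all genes. The calls depended on single libraries of each week, with 3 in all at 2 weeks (1 of them BRAFV600E). No marker was called without BRAFV600E replicate 2 at 6 weeks or replicate 2 at 12 weeks. The same held without BRAFV600E/PI3KαH1047R replicate 1 or 2 at 2 weeks, replicate 3 at 6 weeks or replicate 1 at 12 weeks. Akap5 alone was called without BRAFV600E/PI3KαH1047R replicate 2 at 6 weeks or replicate 2 at 12 weeks, and Igfbp2 was lost without BRAFV600E replicate 3 or BRAFV600E/PI3KαH1047R replicate 4 at 6 weeks. In the other direction 6 were called without the BRAFV600E library at 2 weeks, and 7 were called without BRAFV600E replicate 1 at 12 weeks or BRAFV600E/PI3KαH1047R replicate 1 at 6 weeks, where 460, 394 and 493 of all genes were called against 138. With the replicate block, whose numbers do not pair libraries, or with no filter on low values 0 markers were called (2 and 4 of all genes). With sex as a factor Ager alone was called (98 genes). Sex was taken from the labels, which go against Kdm5d in both BRAFV600E/PI3KαH1047R libraries at 12 weeks. In all 26 alternatives computed, the 9 markers that were lower stayed lower at 12 weeks and Aqp5 stayed higher.

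**Figure D1:**
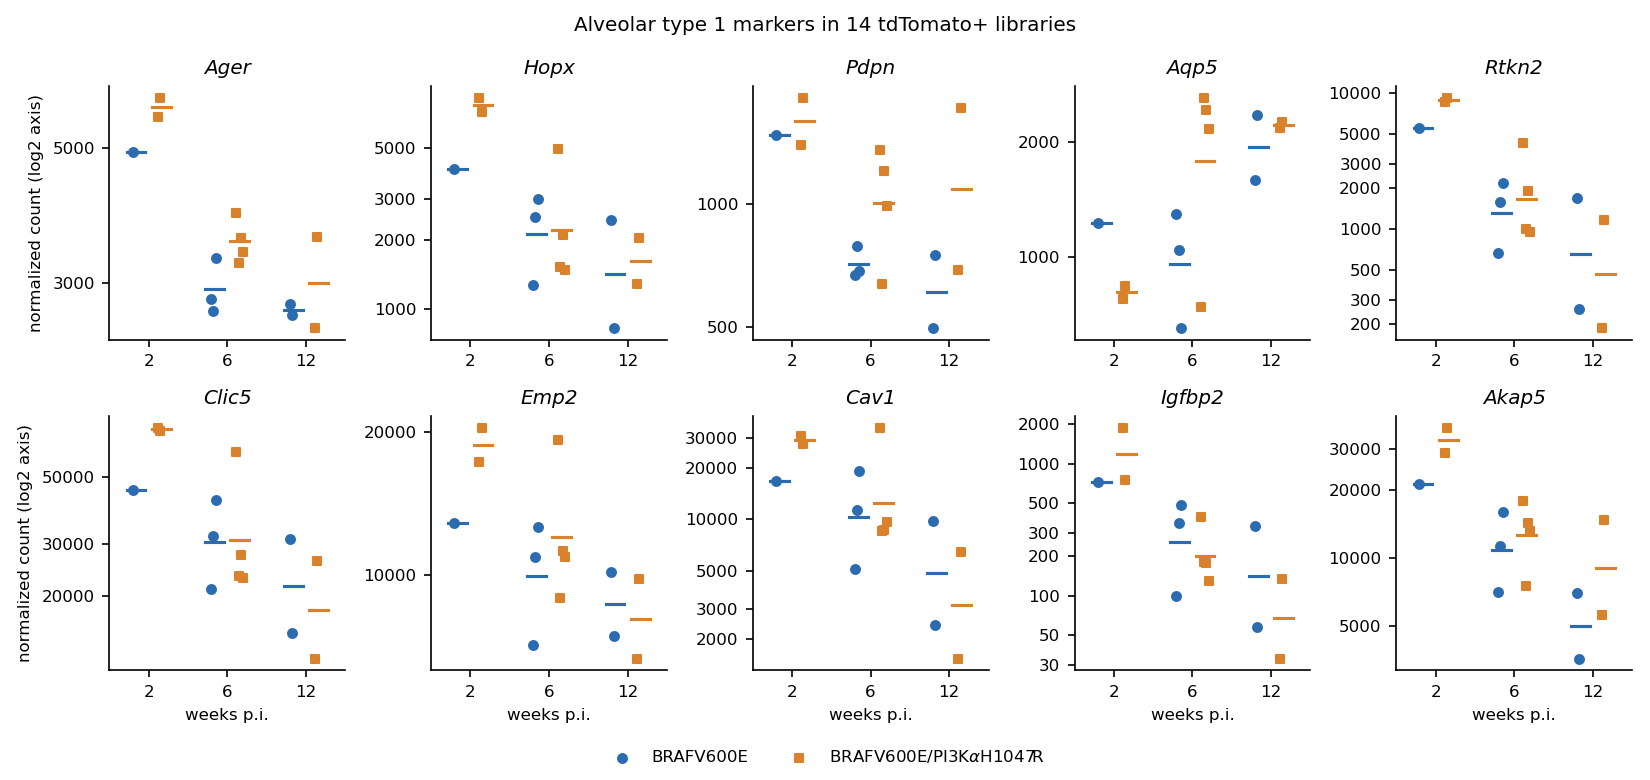
Normalized count (log2 axis) of each of the 10 markers in the 14 libraries of BRAFV600E (blue circles) and BRAFV600E/PI3KαH1047R (orange squares) tumor cells at 2, 6 and 12 weeks p.i., with the mean of log2 values as a bar. The libraries at 2 weeks lie above those at 12 weeks for 8 markers (6.71% of all genes). Pdpn overlaps in 1 library and Aqp5 runs the other way (6.5% of all genes).

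Ager encodes the receptor for advanced glycation end products, a membrane receptor of the basal side of AT1 cells (chr17:34597460-34600937, GRCm38.p6). In BRAFV600E cells Ager had 4930.3 normalized counts in the library at 2 weeks, 2815, 2698 and 3289 at 6 weeks and 2762 and 2656 at 12 weeks. With PI3KαH1047R the counts were 5622 and 6057 at 2 weeks, 3915, 3230.3, 3551 and 3375 at 6 weeks and 2523 and 3563 at 12 weeks. All 3 libraries at 2 weeks were above the 11 later ones, and the later weeks overlapped. Ager fell 1.89-fold from 2 to 12 weeks, a log2 fold change of -0.92 ± 0.18 (SE) with a limma adjusted p of 0.0378. It had the smallest fold of the 4 called markers and also the smallest standard error.

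Pdpn, podoplanin, is a mucin-like glycoprotein of the apical AT1 membrane that lymphatic endothelial cells also make. In BRAFV600E cells Pdpn had 1469 normalized counts at 2 weeks, 668, 786 and 685 at 6 weeks and 496 and 749.5 at 12 weeks. The values with PI3KαH1047R were 1392 and 1817 at 2 weeks, 1351, 636, 1199 and 989 at 6 weeks and 686 and 1709.7 at 12 weeks. Every library at 6 weeks was below those at 2 weeks, but replicate 2 with PI3KαH1047R at 12 weeks lay within the range of 2 weeks. The log2 fold change from 2 to 12 weeks was -0.84 ± 0.34, which did not pass (limma adjusted p of 0.218).

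Emp2, epithelial membrane protein 2, is a small protein that spans the membrane and is abundant in AT1 cells. For Emp2 the BRAFV600E libraries gave 12896 normalized counts at 2 weeks, 7135, 10949 and 12632 at 6 weeks and 10188 and 7474 at 12 weeks. The BRAFV600E/PI3KαH1047R libraries gave 17357 and 20435, then 19255, 8946, 11246 and 10934, then 6686 and 9833 at the same weeks. The libraries at 12 weeks were all below those at 2 weeks, and at 6 weeks replicate 1 with PI3KαH1047R was as high as those at 2 weeks. Emp2 had a log2 fold change of -0.94 ± 0.29 from 2 to 12 weeks (limma adjusted p of 0.115).

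Aqp5 encodes the water channel of the apical AT1 membrane. In BRAFV600E tumors the paper found wide staining of both AQP5 and the AT2 marker LYZ. Aqp5 had 1227 normalized counts in the BRAFV600E library at 2 weeks, 1296, 1048 and 654 in those at 6 weeks and 1592 and 2343 in those at 12 weeks. With PI3KαH1047R the Aqp5 values were 778 and 844 at 2 weeks, 743, 2604, 2419 and 2155 at 6 weeks and 2173 and 2250 at 12 weeks. Both genotypes were higher at 12 than at 2 weeks, with no overlap, but the libraries at 6 weeks with PI3KαH1047R were split, replicate 1 being near the level of 2 weeks and the other 3 near that of 12 weeks. The log2 fold change of Aqp5 from 2 to 12 weeks was 1.22 ± 0.44, a 2.32-fold higher level that did not pass (limma adjusted p of 0.171). Without the 3 libraries that were highest in endothelial markers it was 0.32, with an adjusted p of 0.871 by limma.

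Clic5, chloride intracellular channel 5, is tied to the ezrin cytoskeleton under the membrane. In BRAFV600E cells Clic5 had 45461 normalized counts at 2 weeks, 21108, 31681 and 42041 at 6 weeks and 31116 and 15103 at 12 weeks. In BRAFV600E/PI3KαH1047R cells it had 73206 and 71631 at 2 weeks, 60639.7, 23346, 27491 and 22981 at 6 weeks and 12362 and 26222 at 12 weeks. No library at 12 weeks reached the lowest at 2 weeks, and at 6 weeks replicate 1 with PI3KαH1047R did. The log2 fold change of Clic5 was -1.64 ± 0.40 (limma adjusted p of 0.064).

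Cav1, caveolin 1, is the coat protein of caveolae, the membrane pits of AT1 cells, and endothelial cells make it in large amounts too. Its BRAFV600E values were 16876 normalized counts at 2 weeks, 5116, 11296 and 19128 at 6 weeks and 9815 and 2418 at 12 weeks. Its values with PI3KαH1047R were 30694 and 27704 at 2 weeks, 34409, 8561, 8656 and 9627 at 6 weeks and 1533 and 6441 at 12 weeks. The highest Cav1 level of all 14 libraries was that of replicate 1 with PI3KαH1047R at 6 weeks, while every library at 12 weeks was below all of those at 2 weeks. Cav1 had a log2 fold change of -2.62 ± 0.66 from 2 to 12 weeks, which did not pass (limma adjusted p of 0.0702). Its value ran from -3.21 to -1.79 over the 26 alternatives.

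Akap5 encodes a scaffold that anchors protein kinase A and calcineurin near the membrane. Akap5 had 21149.8 normalized counts in BRAFV600E cells at 2 weeks, 7092, 11269.5 and 16000.5 at 6 weeks and 6984 and 3606 at 12 weeks. With PI3KαH1047R, Akap5 had 29014 and 37352 at 2 weeks, 17824, 7553, 14285 and 13178 at 6 weeks and 5612 and 14612 at 12 weeks. The 3 libraries at 2 weeks were the highest, and in BRAFV600E cells both at 12 weeks were below all 3 at 6 weeks. Akap5 fell 3.98-fold from 2 to 12 weeks (log2 fold change of -1.99 ± 0.39, limma adjusted p of 0.0378).

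Rtkn2, rhotekin 2, is among the genes most restricted to AT1 cells in the lung. BRAFV600E cells had 5587 normalized counts of Rtkn2 at 2 weeks, 665, 1570.2 and 2199.5 at 6 weeks and 1682 and 258 at 12 weeks. BRAFV600E/PI3KαH1047R cells had 8612 and 9312 at 2 weeks, 4316, 996, 1909 and 952 at 6 weeks and 186 and 1175 at 12 weeks. No later library reached the lowest value at 2 weeks, and the libraries at 12 weeks spanned a wide range in either genotype. Rtkn2 fell 13.5-fold, the largest fold among the markers, with a log2 fold change of -3.76 ± 0.74 and a limma adjusted p of 0.0378. With each library left out the Rtkn2 value ran from -4.31 to -3.08. The smallest fall, -3.08, came without BRAFV600E/PI3KαH1047R replicate 1 at 12 weeks and was not called.

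Igfbp2 encodes a secreted binding protein of insulin-like growth factors that marks mature AT1 cells. The Igfbp2 values of BRAFV600E cells were 722 normalized counts at 2 weeks, 98.6, 353 and 482 at 6 weeks and 337 and 58.3 at 12 weeks. Those of BRAFV600E/PI3KαH1047R cells were 1864 and 747 at 2 weeks, 396, 178, 176 and 128 at 6 weeks and 33.3 and 134 at 12 weeks. All later libraries were below those at 2 weeks, and replicates of a group differed by larger factors than those of Ager. Igfbp2 fell 10.6-fold from 2 to 12 weeks (log2 fold change of -3.41 ± 0.73, limma adjusted p of 0.0478).

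Hopx encodes a small homeodomain protein that does not bind DNA itself and works with other regulators in the nucleus of AT1 cells. Its normalized counts in BRAFV600E cells were 4055 at 2 weeks, 1275, 2514 and 3024 at 6 weeks and 2442 and 829.3 at 12 weeks. With PI3KαH1047R they were 8288 and 7178 at 2 weeks, 4936, 1529, 2093 and 1481 at 6 weeks and 1291 and 2034 at 12 weeks. Replicate 1 with PI3KαH1047R at 6 weeks lay above the BRAFV600E library at 2 weeks, and all libraries at 12 weeks lay below it. The log2 fold change of Hopx from 2 to 12 weeks was -1.99 ± 0.47 (limma adjusted p of 0.0605). Over the 26 alternatives it ran from -2.30 to -1.35.

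As a test of single values, week labels were permuted within each genotype, and the slope of the log2 value on log2 week was taken over both. In this two-sided exact permutation test, unadjusted, p was 0.000595 for Ager, 0.000952 for Akap5, 0.000952 for Rtkn2 and 0.00135 for Igfbp2. It was 0.00242 for Hopx, 0.0027 for Clic5, 0.00675 for Cav1 and 0.00706 for Emp2 in the same exact permutation. The weakest were Aqp5, with a positive slope and an exact p of 0.0287, and Pdpn, with an exact p of 0.0349. The markers were chosen with earlier results of these data known, so these p-values are not independent evidence of a change over weeks.

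**Figure D2:**
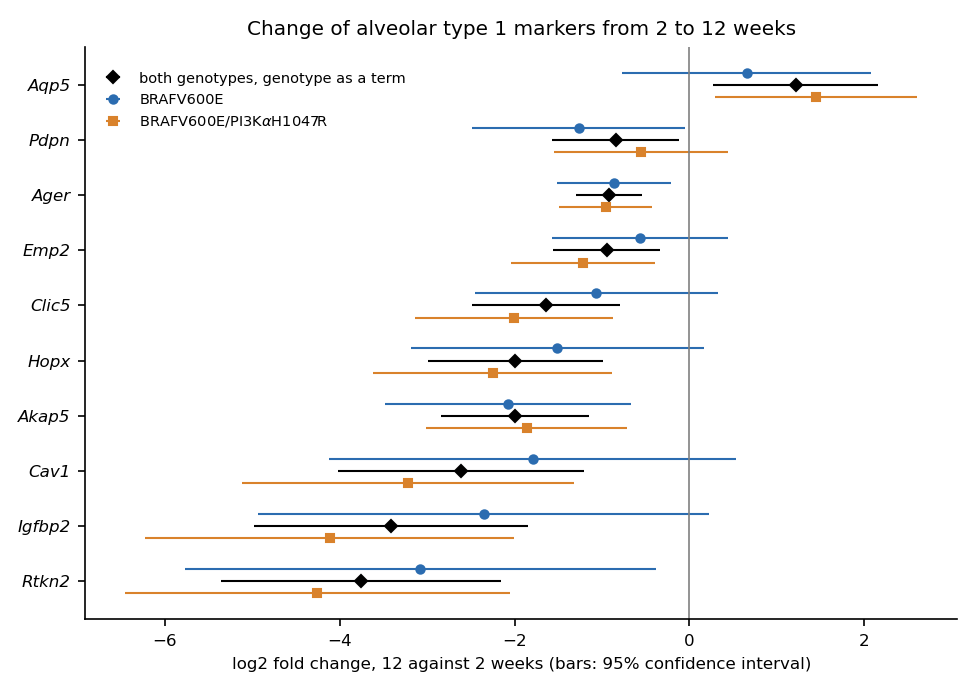
Log2 fold change of each marker from 2 to 12 weeks with its 95% confidence interval by limma, over both genotypes (black diamonds) and within BRAFV600E (blue circles) and BRAFV600E/PI3KαH1047R (orange squares) libraries. Values over both genotypes run from -3.76 for Rtkn2 to 1.22 for Aqp5, and 9 of 10 lie below 0 in both genotypes.

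The comparison was then split into its steps, which were not tested against each other. From 2 to 6 weeks 9 of 10 markers were lower, with log2 fold changes of -0.74 ± 0.16 for Ager, -1.49 ± 0.42 for Hopx, -1.22 ± 0.36 for Akap5, -2.20 ± 0.66 for Igfbp2 and -2.32 ± 0.67 for Rtkn2. None of the 10 was called by limma, where 0.0513% of all genes were, and 8 had an unadjusted p under 0.05, against 11.9% of all genes. For 5 markers, Ager, Pdpn, Rtkn2, Igfbp2 and Akap5, all 7 libraries at 6 weeks were below the 3 at 2 weeks, against 1.61% of all genes. From 6 to 12 weeks 9 of 10 were lower again, with a median log2 fold change of -0.56 against -1.04 from 2 to 6 weeks, and the largest was that of Cav1 (-1.55 ± 0.54). By limma 0 of 10 were called from 6 to 12 weeks (0% of all genes), and Rtkn2, Cav1 and Akap5 had an unadjusted p under 0.05, against 5.31% of all genes. With the endothelial score as a covariate 6 markers were called from 2 to 6 weeks, Ager, Hopx, Rtkn2, Clic5, Igfbp2 and Akap5, and the genes called rose from 9 to 360 of 17558.

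The second question was whether the change over weeks differed between genotypes. Within BRAFV600E libraries the log2 fold change from 2 to 12 weeks was -0.86 ± 0.30 for Ager, -2.08 ± 0.65 for Akap5, -3.08 ± 1.24 for Rtkn2 and -2.35 ± 1.19 for Igfbp2. Within BRAFV600E/PI3KαH1047R libraries it was -0.96 ± 0.25 for Ager, -1.86 ± 0.53 for Akap5, -4.26 ± 1.01 for Rtkn2 and -4.11 ± 0.97 for Igfbp2. Within either genotype 9 of 10 markers were lower at 12 weeks and 0 of 10 were called by limma, against 0% of all genes in BRAFV600E and 0.57% in BRAFV600E/PI3KαH1047R cells. In these fits the single BRAFV600E library at 2 weeks was assumed to vary like the other groups. By unadjusted p under 0.05, 4 markers passed in BRAFV600E and 9 in BRAFV600E/PI3KαH1047R cells, against 7.43% and 19.1% of all genes. The difference of the changes between genotypes was called for 0 of 10 markers and 0% of all genes in each of the 3 comparisons of weeks, and 0 markers had an unadjusted p under 0.05 there, against 8.95% of all genes from 2 to 6, 2.87% from 6 to 12 and 9.1% from 2 to 12 weeks. These differences were measured with little precision: that of Ager from 2 to 12 weeks had a 95% interval of -0.94 to 0.75 on the log2 scale, that of Hopx -2.90 to 1.42 and that of Rtkn2 -4.65 to 2.30.

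The third question was whether PI3KαH1047R changed the markers, which the study asked over all weeks and at each week. Genotype was the single term of the fit over the weeks together, although the weeks are not balanced between genotypes. In it 9 of 10 markers were higher with PI3KαH1047R, from 0.20 ± 0.39 for Clic5 to 0.65 ± 0.44 for Akap5 on the log2 scale, and Igfbp2 stood at -0.07 ± 0.78. By limma 0 of 10 were called, where 0.0228% of all genes were, and 0 had an unadjusted p under 0.05, against 6.83% of all genes. In the same comparison 20 of 20 endothelial markers were higher (median 0.89) and 12 of 12 AT2 markers lower (median -1.04) with PI3KαH1047R, with 0 of either called by limma. With week as a second term the differences were smaller for most, with 0.06 for Clic5, 0.16 for Rtkn2, 0.11 for Cav1 and 0.49 for Akap5, while Igfbp2 was at -0.35, and 0 of 10 were called. Without the 3 libraries highest in endothelial markers, the differences of the fit on genotype alone of Hopx, Rtkn2, Clic5, Emp2 and Cav1 turned to -0.32, -0.68, -0.42, -0.086 and -0.57. In the two-sided exact permutation of genotype labels within weeks, unadjusted, p was 0.0238 for Ager (higher by 0.22 on the log2 scale), 0.054 for Pdpn and 0.149 or more for the other 8.

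At 2 weeks there was 1 BRAFV600E library to compare with, again assumed to vary like the other groups. By limma 0 of 10 markers were called there (0.0171% of all genes) and 0 had an unadjusted p under 0.05 (13.5% of all genes), with log2 fold changes from -0.60 for Aqp5 to 0.93 for Hopx. At 2 weeks 20 of 20 endothelial markers were higher (median 3.37) and 12 of 12 AT2 markers lower (median -2.44) with PI3KαH1047R, with 0 called by limma, and their part in the values was not tested. At 6 weeks the genotypes overlapped for all 10 markers, where 2.63% of all genes were wholly above and 2.6% wholly below, and 0 were called (0.0228% of all genes). Aqp5, with the largest log2 fold change at 6 weeks, 0.89 ± 0.41, was the 1 marker with an unadjusted p under 0.05, against 4.24% of all genes. At 12 weeks they overlapped again (15.42% of all genes were wholly above and 13.78% wholly below), 0 were called (0.0114% of all genes) and 0 had an unadjusted p under 0.05 (3.76% of all genes), with values from -1.05 ± 0.97 for Igfbp2 to 0.85 ± 0.53 for Akap5. At 6 weeks the narrowest 95% interval of the 10 was that of Ager, -0.15 to 0.67, and the widest that of Rtkn2, -1.34 to 2.02. Differences within these intervals could not be told from 0.

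Markers of other cell types were compared in the same fit, in which 0 of 20 endothelial, 0 of 12 fibroblast and 0 of 10 macrophage markers were called by limma from 2 to 12 weeks. The 12 AT2 markers were all higher at 12 than at 2 weeks, with a median log2 fold change of 2.32 (0.76 within BRAFV600E and 3.26 within BRAFV600E/PI3KαH1047R cells), and 1, Etv5, was called by limma. Without the BRAFV600E library at 2 weeks the AT2 median was 3.21 and 12 were called, and without the 3 libraries highest in endothelial markers it was 0.71 and 0 were called. Over both genotypes 18 of 20 endothelial markers were lower at 12 than at 2 weeks (median -0.98), but the genotypes went opposite ways, with 18 of 20 higher in BRAFV600E (median 0.89) and 19 of 20 lower in BRAFV600E/PI3KαH1047R cells (median -2.10). From 2 to 6 weeks 19 of 20 were higher in BRAFV600E (median 1.92) and 20 of 20 lower in BRAFV600E/PI3KαH1047R cells (median -1.06). Of 12 fibroblast markers 11 were lower at 12 weeks (median -1.93). Of 10 macrophage markers 9 were higher at 12 weeks (median 1.37). The part of AT2, fibroblast and macrophage RNA in the values of the AT1 markers was not tested. The sum of the endothelial markers was 22669 normalized counts in the BRAFV600E library at 2 weeks, 43513 to 178834 at 6 weeks and 19315 to 117222 at 12 weeks. With PI3KαH1047R the sum was 210949 to 242488 at 2 weeks, 60109 to 337063 at 6 weeks and 32628 to 70750.0 at 12 weeks, and none of the 20 was at 0 in any of the 14 libraries. The BRAFV600E library at 2 weeks had a low endothelial score, 8.78, and a high score over the 10 AT1 markers, 12.45, whereas the other 3 libraries highest in AT1 markers, both with PI3KαH1047R at 2 weeks and replicate 1 at 6 weeks, had the highest endothelial scores (11.97, 11.87 and 12.43). With genotype and week in the fit, the slope on the endothelial score was called by limma for 7 of 10 markers, where 12.2% of all genes were called. It was positive for Hopx (0.56 ± 0.08 per unit of score), Clic5 (0.46 ± 0.07), Cav1 (0.74 ± 0.13), Igfbp2 (0.81 ± 0.15), Rtkn2 (0.79 ± 0.17) and Emp2 (0.28 ± 0.07), and negative for Aqp5 (-0.46 ± 0.10). Ager (0.06 ± 0.06), Pdpn (0.01 ± 0.12) and Akap5 (0.33 ± 0.11) were not called. With the endothelial score as a covariate, 7 of 10 markers were called lower at 12 than at 2 weeks, Hopx, Clic5 and Cav1 joining the 4 above, with 398 of 17558 genes called against 138, and Ager had a log2 fold change of -0.86 and Rtkn2 of -3.08. Without the 3 libraries highest in endothelial markers, which leaves 1 library at 2 weeks, 0 were called, and the values were -0.88 for Ager, -1.84 for Akap5, -3.19 for Rtkn2 and -2.46 for Igfbp2.

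**Figure D3:**
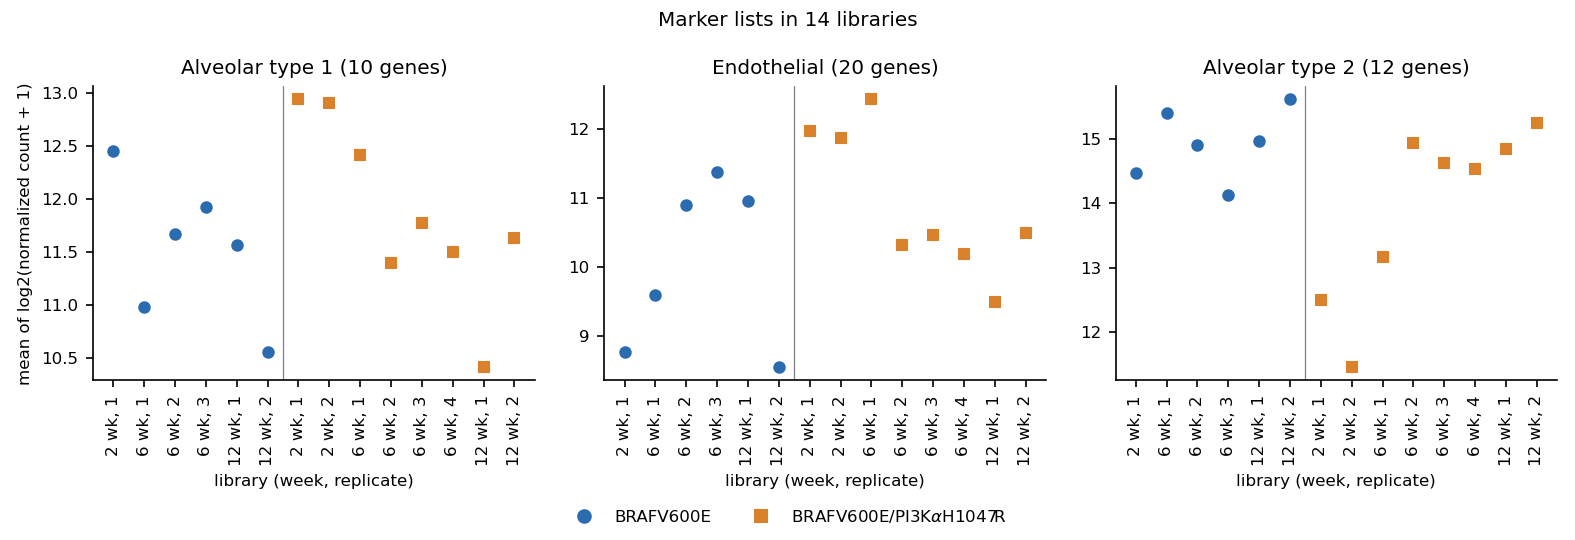
Mean of log2 (normalized count + 1) over the 10 alveolar type 1, 20 endothelial and 12 alveolar type 2 markers in each of the 14 libraries, ordered by genotype, week and replicate. The BRAFV600E library at 2 weeks is high in alveolar type 1 markers (12.45) and low in endothelial markers (8.78), and both BRAFV600E/PI3KαH1047R libraries at 2 weeks are low in alveolar type 2 markers (12.50 and 11.46).

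Some other genes of the AT1 program fell as well. Of 25 other AT1 genes 22 were lower at 12 than at 2 weeks, with a median log2 fold change of -1.25, and 6 were called, all lower, where 0.393% of all genes were called lower. With the replicate block, with no filter on low values or without the 3 libraries highest in endothelial markers 0 of the 25 were called. Those called in the main comparison were Scnn1g (-3.31 ± 0.68), a subunit of the epithelial sodium channel, Sema3e (-2.80 ± 0.51), a secreted guidance protein, and Col4a3 (-1.74 ± 0.30) and Col4a4 (-1.24 ± 0.19), collagen chains of the alveolar basement membrane. Mal2 (-1.25 ± 0.23), a protein of apical transport, and Gramd2 (-1.06 ± 0.22) were the others, and their limma adjusted p ran from 0.0334 for Col4a4 to 0.0461 for Gramd2. Cldn18, Krt7 and Ndnf were the 3 with a value above 0, at 0.36, 0.40 and 0.07. Of 12 regulators of the program and targets of YAP and TAZ, 10 were lower and 1 was called, Tead1 (-1.50 ± 0.24, limma adjusted p of 0.0339), a DNA-binding partner of YAP and TAZ. Tead1 too was lost with the replicate block, with no filter on low values and without the 3 libraries highest in endothelial markers. Nkx2-1, the lung lineage factor, had 0.69 ± 0.32 and Klf5 1.22 ± 0.40, neither called by limma. Of 6 other caveola genes 5 were lower (median -1.12) and 0 were called. Without BRAFV600E replicate 2 at 6 or 12 weeks, or without BRAFV600E/PI3KαH1047R replicate 1 or 2 at 2 weeks or replicate 1 at 12 weeks, 0 of the 25 and 0 of the 12 were called. Without BRAFV600E/PI3KαH1047R replicate 3 at 6 weeks 1 of the 25 was called and without replicate 2 at 12 weeks 3 (and 0 of the 12), and 12 and 13 were called without BRAFV600E replicate 1 at 12 weeks and BRAFV600E/PI3KαH1047R replicate 1 at 6 weeks.

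**Figure D4:**
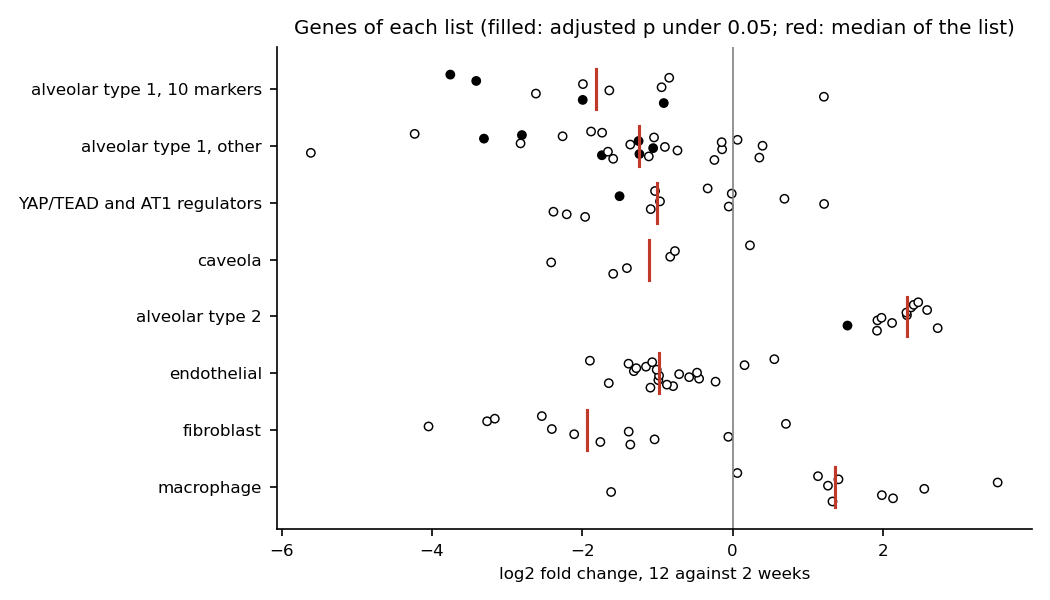
Log2 fold change from 2 to 12 weeks of each gene in 8 lists, with the median of each list in red and genes with a limma adjusted p under 0.05 filled. Medians are -1.82 for the 10 alveolar type 1 markers, -1.25 for the other alveolar type 1 genes, 2.32 for alveolar type 2 and -0.98 for endothelial markers.

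Across the 14 libraries the genes with the pattern most like Ager, by Pearson's r of log2 values among 14207 genes with a mean over 40, were Hs2st1 (r = 0.937), Tef (0.933), B3gnt9 (0.904), Npnt (0.904) and Col4a4 (0.901). Among the markers themselves r to Ager was 0.902 for Akap5, 0.871 for Rtkn2 and 0.850 for Hopx, 0.753 for Cav1 as the lowest of the positive ones, and -0.492 for Aqp5. These points share weeks, genotypes and normalization, and the values are descriptions over 14 libraries. Over the 9 libraries of the second table, where Igfbp2 was under the minimum mean and was not ranked, the first were Ddx56 (0.916), Sfta2 (0.913), Rora (0.912), Lrrc42 (0.910) and Siva1 (0.902), and among the other 8 markers Emp2 was the highest at 0.716 and Cav1 the lowest at -0.340.

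The last question was whether loss of PGC1α, a coactivator of mitochondrial and metabolic genes, changed the markers in BRAFV600E tumors at 12 weeks. Ppargc1a had 75.8, 170.2, 155, 199.5 and 561 normalized counts in the 5 PGC1αHet libraries and 72.7, 38.0, 51.6 and 124 in the 4 PGC1αNull libraries, so the groups overlapped in the targeted gene. Ager had 2659.8, 2068, 3210.3, 2279 and 1698 with PGC1αHet and 2143, 2198, 2758 and 2259 with PGC1αNull. The PGC1αNull values lay within the range of the PGC1αHet values, with a log2 fold change whose 95% interval was -0.47 to 0.47. By limma 0 of 10 markers were called (0% of all 17424 genes), and 1 marker, Rtkn2, had an unadjusted p under 0.05, against 3.83% of all genes.

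Rtkn2 had 259, 46.4, 57.9, 35.4 and 188 normalized counts with PGC1αHet and 284, 158, 205 and 233 with PGC1αNull. Of the PGC1αHet libraries 3 were below every PGC1αNull library and 2 lay within their range, and the log2 fold change was 1.31 ± 0.53 (limma adjusted p of 0.998, two-sided exact permutation p of 0.119, unadjusted). Igfbp2 had 100.2, 15.6, 7.29, 1.78 and 36.7 with PGC1αHet and 90.2, 46.1, 19.9 and 26.7 with PGC1αNull, a log2 fold change of 1.21 ± 0.89 at low levels that ran from 0.56 without PGC1αHet replicate 4 to 1.86 without PGC1αHet replicate 1. Cav1 had 250.5, 287, 216, 204 and 399 with PGC1αHet and 303, 604, 449 and 298 with PGC1αNull, a log2 fold change of 0.59 ± 0.28 with an exact permutation p of 0.0873. These 3 genes were the ones with the largest differences, and in each the groups overlapped, as in nearly all genes, of which 0.94% were wholly above and 0.46% wholly below with PGC1αNull.

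For the other markers the differences were small against the spread. Hopx ran from 339 to 381 normalized counts with PGC1αHet and from 267 to 411 with PGC1αNull. Log2 fold changes were -0.18 ± 0.21 for Hopx, -0.15 ± 0.21 for Emp2, -0.08 ± 0.28 for Aqp5 and 0.09 ± 0.34 for Pdpn, and those of Clic5 and Akap5 were within 0.02 of 0. All 18 endothelial markers tested were higher with PGC1αNull, with a median log2 fold change of 1.86, and the sum of all 20 was 1241 to 2100 normalized counts with PGC1αHet and 3074 to 4656 with PGC1αNull, with up to 4 of the 20 at 0 in a library. Other lists were higher with PGC1αNull as well: 11 of 11 fibroblast (median 1.51), 10 of 10 macrophage (1.36), 6 of 6 club cell (2.20) and 5 of 5 mesothelial markers tested (1.18), while 12 of 12 AT2 markers were lower (median -0.205), and 0 of the markers in these lists were called by limma. With the endothelial score as a covariate the log2 fold changes of Rtkn2, Igfbp2 and Cav1 turned to -0.85 ± 0.81, -0.9996 ± 1.66 and -0.18 ± 0.52. That of Pdpn turned to -1.004 ± 0.60, and none was called. The endothelial scores of the groups did not overlap (4.07 to 5.85 with PGC1αHet and 6.07 to 6.90 with PGC1αNull). The covariate can therefore hardly be told apart from genotype, and these values do not show what endothelial RNA contributes.

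**Figure D5:**
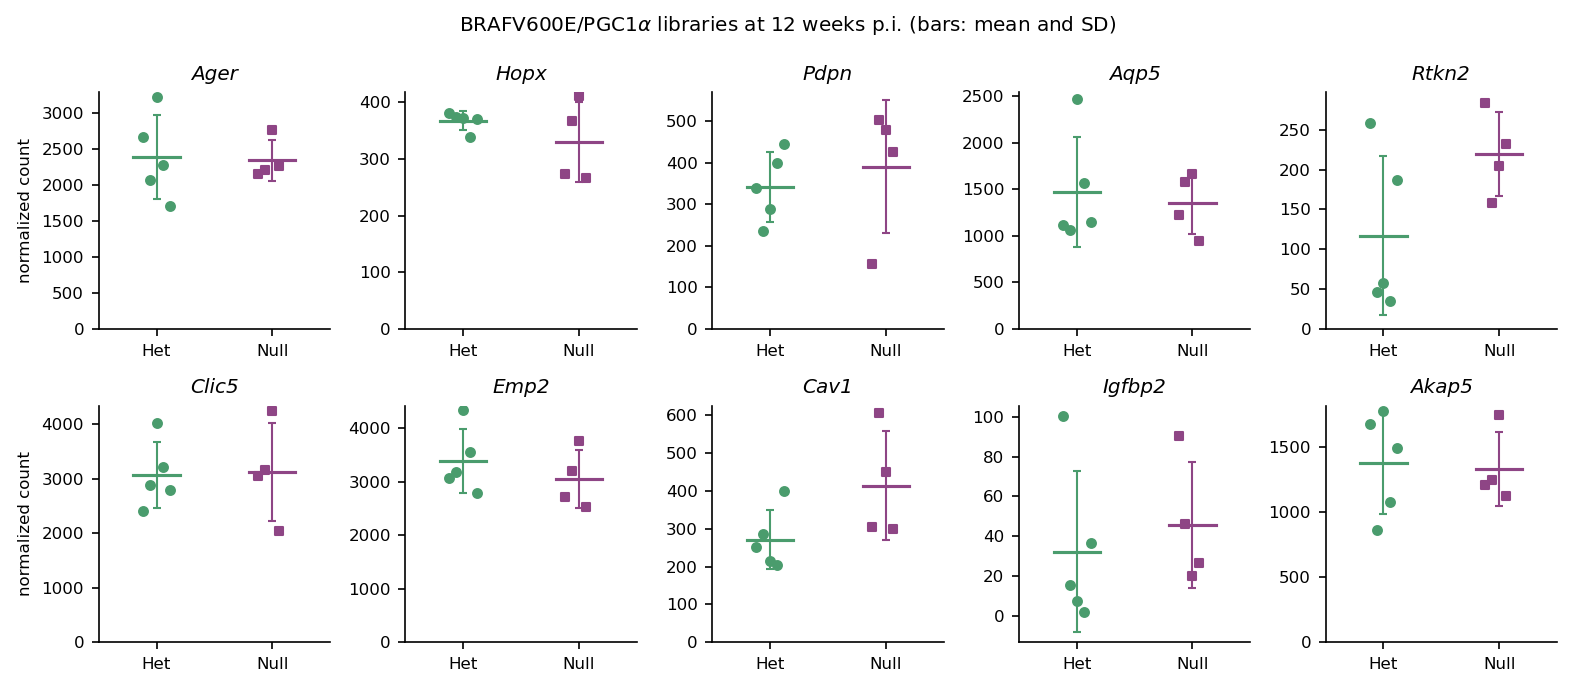
Normalized counts of the 10 markers in the 5 BRAFV600E/PGC1αHet (circles) and 4 BRAFV600E/PGC1αNull (squares) libraries at 12 weeks p.i., with the mean and SD of each group. The groups overlap for all 10 markers (0.94% of all genes are wholly above and 0.46% wholly below with PGC1αNull), and Rtkn2 has 3 PGC1αHet libraries below every PGC1αNull library.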

How the data were processed

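tdTomato+ tumor cells were purified by flow cytometry and RNA-seq libraries were sequenced from 1 end. Salmon quantified transcripts against GRCm38, per the submitters' processing notes, and DESeq2 scaled the gene estimates. Tool versions are not given in the sources used here. The deposited values are therefore a signal, the authors' DESeq2-normalized counts, and not raw counts: 8.05% to 35.2% of values under 20 were whole multiples of a common step in the first table and 7.75% to 13.9% in the second (tolerance 0.01), so reads could not be recovered, depth is unknown and no count model was used. Normalized counts are not divided by gene length, so levels of different genes were not compared. The authors' own comparison tables hold base means, fold changes, standard errors, Wald statistics and p-values and were not used.

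Groups follow the labels. Values were taken as log2 (normalized count + 1), genes with a mean of at least 10 were fitted with limma 3.58.1 in R 4.3.3 (mean-variance trend, moderated variance, two-sided), and p-values were adjusted by Benjamini-Hochberg over all genes tested. A fold change on this scale understates that of genes at low levels. Weeks were compared with genotype as a term, PI3KαH1047R over all weeks on genotype alone, and differences between genotypes by the interaction. Week labels within genotypes (25200 arrangements), genotype labels within weeks (630) and PGC1α labels (126) were permuted exactly with NumPy 2.4.6. Fits were tested on simulated data. The markers and lists were chosen with earlier results of these data known. The genes named are the 10 markers, any called gene of the other AT1, caveola and regulator lists, level and genotype checks, and the 5 genes most correlated with Ager. Etv5, Cldn18, Krt7, Ndnf, Nkx2-1 and Klf5 were named after their values were seen. Alternatives were a pseudocount of 4, a mean over 40, no filter, quantile normalization, a replicate block, sex, week or an endothelial score as a term, 6-week libraries alone, array weights, a slope on log2 week, either genotype alone, and each library left out. Leaving out the 3 libraries highest in endothelial markers was chosen after seeing the data.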

Additional observations from a re-analysis of the deposited data

Results flagged for a closer look

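In groups of 4 or 5 libraries the gap of the highest or lowest value to its neighbour was compared with the range of the group by Dixon's criterion, for 30 sets of values in all, and 3 stood out, where chance gives about 1 in 20. With PI3KαH1047R at 6 weeks, replicate 1 had 60639.7 normalized counts of Clic5, far above the 22981 to 27491 of the other 3, and 34409.3 of Cav1, far above their 8561 to 9627. The same library had the highest endothelial score of the 14, 12.43, and 13.16 for AT2 markers, and the part of either in its Clic5 and Cav1 values was not tested. Among the PGC1αHet libraries, replicate 4 had 338.8 normalized counts of Hopx, below a narrow range of 371 to 381 in the other 4. In no marker did all BRAFV600E/PI3KαH1047R libraries lie above the BRAFV600E libraries at 1 of the weeks and below them at another.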

How the results depend on the processing

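From 2 to 12 weeks, 4 of 10 markers were called among 138 genes. The count was 0 with all genes that have any value (4 genes called), 0 with the replicate block (2 genes), 1 with sex as a factor (98), 7 with the endothelial score as covariate (398), 7 with array weights (442), 6 with a slope on log2 week (250), 5 with quantile normalization (153), 0 in BRAFV600E libraries only (0 genes), 0 in BRAFV600E/PI3KαH1047R libraries only (100) and 0 without the 3 libraries highest in endothelial markers (5). Sex was fitted as labelled. Leaving out each library gave 0 to 7 markers and 0 to 493 genes. With the endothelial score as covariate 6 markers were called from 2 to 6 weeks, among 360 genes against 9. In the other comparisons 0 markers were called under every alternative run. The replicate numbers do not pair libraries: deviations of the same number correlated from -0.284 to 0.257 in 21 pairs and from -0.467 to 0.211 in 4, and 3 of 13 and 2 of 9 libraries matched their own number best. The block changed no marker's call outside the comparison of 12 with 2 weeks, while genes called from 2 to 6 weeks went from 9 to 0 and those for PI3KαH1047R over all weeks from 4 to 3.

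Signs of log2 fold changes that were not called turned as follows, and the cause was not tested. For PI3KαH1047R over all weeks, Igfbp2 was 0.11 with the replicate block. With the endothelial score as covariate Hopx was -0.14, Rtkn2 -0.43, Clic5 -0.29 and Cav1 -0.50, and with array weights Clic5 was -0.020. Without the 3 endothelial-high libraries Hopx was -0.32, Rtkn2 -0.68, Clic5 -0.42, Emp2 -0.086 and Cav1 -0.57. From 2 to 6 weeks Aqp5 was -0.35 in BRAFV600E libraries only and -0.13 without those 3. From 6 to 12 weeks Pdpn was 0.090 with array weights, 0.11 in BRAFV600E/PI3KαH1047R libraries only and 0.014 without those 3. For PGC1αNull against PGC1αHet, quantile normalization gave Ager 0.077 and Akap5 0.046, the block gave Clic5 -0.027 and Akap5 0.028, and sex gave Clic5 -0.019 and Akap5 0.013. There the endothelial covariate gave Ager 0.25, Pdpn -1.004, Aqp5 0.25, Rtkn2 -0.85, Emp2 0.082, Cav1 -0.18 and Igfbp2 -0.9996. The endothelial scores of these groups did not overlap, so that covariate can hardly be told apart from genotype. Array weights gave Ager 0.035 and Akap5 0.16 in the same comparison. Leaving out each library gave ranges across 0 for PGC1α loss in Ager (-0.11 to 0.12), Akap5 (-0.17 to 0.09), Aqp5 (-0.19 to 0.13), Clic5 (-0.16 to 0.19) and Pdpn (-0.073 to 0.49), for PI3KαH1047R in Cav1 (-0.044 to 0.73) and Igfbp2 (-0.49 to 0.33), and from 6 to 12 weeks in Pdpn (-0.37 to 0.14).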
